A study of Danio rerio with 6 samples.

Results

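Nucleolar ribosome assembly factors are the proteins that fold, cut and modify ribosomal RNA and load it with ribosomal proteins in the nucleolus. Their transcripts were measured by RNA-seq in progenitors of blood that carried red fluorescent protein (RFP), sorted from zebrafish embryos aged 20 h. The genes were chosen from 40 written symbols plus every gene whose symbol begins with utp or rrp and a digit. Of the written symbols 38 were found in the name table and 17 genes were added by the pattern, which gave 55 of the 32520 gene IDs in the count files. The 2 symbols not found were pes and brix1. The gene set was not chosen by measured values, although earlier results of these data were known when it was written.

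Sorted RFP-positive cells, 30000 for each library, were compared between 2 groups of 3 libraries. The first group came from embryos that the genotype label gives as blf-/-; drl 4KO, shortened here to 4KO, which carry mutations in blf and in drl genes. The second group is called control. Its sample labels give the genotype blf-/-, whereas the series design gives blf+/-, and the labels do not settle which is right. By the sample labels the groups differ in drl genes alone, and by the series design in blf as well. The read levels of blf in both groups are given below. Both blf and drl code for zinc finger proteins, and both are active in the mesoderm that forms blood. In both groups the sort read RFP from a gene-trap allele of blf, so the tracer depends on a locus that belongs to the genotype, and embryos of both groups were digested with Liberase before sorting. The labels do not say which drl genes make up the 4KO allele, nor whether the libraries of a group stem from different clutches or sorting runs. The spread behind each p-value is therefore that of these libraries and may be technical.

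Ribosomes are built in steps. RNA polymerase I makes a long precursor, small nucleolar ribonucleoproteins (snoRNPs) modify it and help to fold it, and the small subunit processome forms on the part that becomes the small (40S) subunit. A separate set of factors, with the PeBoW complex among them, matures the large (60S) subunit, and late factors carry each subunit through its last cuts and to the cytoplasm. Cells that grow and divide quickly, such as blood precursors, make many ribosomes. Zebrafish and human blood are sensitive to loss of ribosomal proteins and of several assembly factors.

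Total counts per library ranged from 12751618 to 18101975. As a check of the labels, blf was at 118, 80.2 and 45.3 CPM in 4KO replicates 1, 2 and 3, against 2571, 2526 and 2835 CPM in controls, where CPM are read counts scaled for library size and composition (TMM factors). The control level of blf was thus far above that of the 4KO libraries, although the genotype labels of both groups name blf-/-. The 4 drl genes measured (drl, drll.1, drll.2 and drll.3) had between 0 and 7 reads in each 4KO library and between 371 and 7820 reads in each control library. The erythroid marker genes were lower in 4KO cells, 7 of 8 past the threshold, with a summed level of 11559 to 15570 CPM against 92516 to 120300 CPM in controls. Myeloid markers were higher, 10 of 12 tested genes, at 4780 to 6345 CPM against 1009 to 1149 CPM. Most of these myeloid genes share the symbol MFAP4 or MPEG1, so the count is not one of separate markers. Epidermal markers were higher in 8 of 8 cases, at 1740 to 2436 CPM against 153 to 194 CPM. Endothelial markers were higher in 4 of 5 cases (371 to 406 against 81.5 to 129 CPM) and muscle markers in 3 of 5 (1858 to 4760 against 350 to 1307 CPM). Neural markers were low in both groups, at 24.7 to 51.2 CPM in 4KO cells and 2.91 to 10.2 CPM in controls, with 1 of 4 tested genes higher (2 with DESeq2) and neurog1 at 0 in all 4KO libraries. Over all tested genes, 9.92% were called lower and 13.0% higher. These marker levels moved with the genotype, and their part in the changes of the assembly factors was not tested. In such bulk libraries, fewer cells of a type and less RNA per cell cannot be told apart.

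Most of the assembly set was lower in 4KO cells. Of 54 tested genes, 44 fell and 0 rose, at an adjusted p below 0.05 in edgeR's quasi-likelihood test with Benjamini-Hochberg adjustment over all 14517 tested genes. None rose with DESeq2 or limma-voom, or at an unadjusted p below 0.05 in edgeR (0 genes each). Over all tested genes, 9.92% were called lower and 13.0% higher, and among genes with a mean of at least 20 CPM, 21.5% were called lower. Of the 51 assembly genes above that level, 44 fell (86.3%). Without control replicate 2 the counts were lowest, with 34 of 54 assembly genes lower beside 5.38% of all genes. The fitted log2 fold change, 4KO over control, was below 0 for all 54 tested genes (UTP25 was above 0 with library totals as scaling), with a median of -1.23 and a range from -3.01 to -0.18, beside a median of 0.11 over all tested genes. For 47 of the 54, every 4KO library was below every control library, a pattern met by 19.8% of all tested genes. At a mean of at least 20 CPM, 45 of 51 assembly genes met it, and 1777 of all 5431 tested genes. The median log2 fold change at that level was -1.21 for assembly genes and -0.16 for all tested genes. The gene that was not tested, utp18, had too few reads, with 0, 8 and 0 in 4KO replicates 1, 2 and 3 and 6, 32 and 61 in controls.

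Scaling by library totals in place of TMM factors raised the median of all genes to 0.42 and split all calls into 959 lower and 2402 higher, against 1440 lower and 1887 higher with TMM. A change of scaling shifts the fold changes of all genes nearly alike. The distance of the assembly set's median from that of all genes could therefore hardly move (-1.34 with library totals, -1.35 with TMM). It is no check of the scaling. With library totals 36 of the 54 assembly genes fell and 0 rose, against 44 that fell with TMM.

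**Figure D1:**
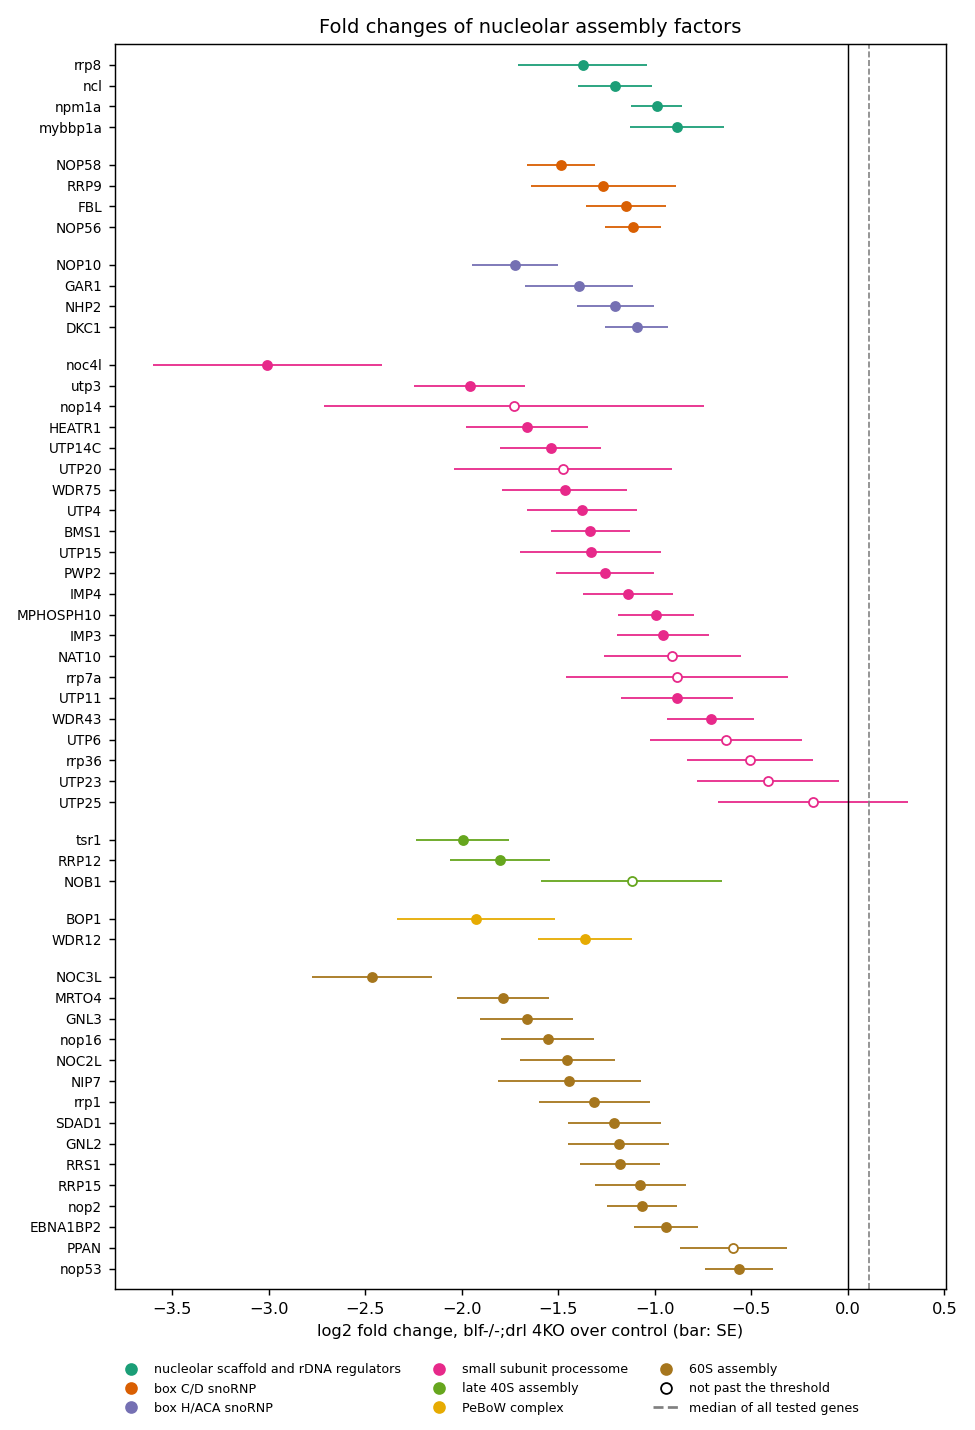
Fold changes of the 54 tested nucleolar assembly factors, grouped by class. Points are log2 fold changes of 4KO over control from edgeR with SE bars (3 libraries in each group), open points did not pass the threshold, and the dashed line is the median of all tested genes (0.11). All points lie below 0, from noc4l at -3.01 to UTP25 at -0.18, which was above 0 with library totals as scaling.

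The set took a smaller share of each library. Its 55 genes held 0.623% ± 0.029 of all counts in 4KO libraries and 1.14% ± 0.037 in controls (SD, n = 3 each). On the TMM scale the summed level was 5365, 5537 and 5933 CPM in 4KO replicates 1, 2 and 3, against 11767, 13010 and 13732 CPM in controls, 2.29-fold lower. Every 4KO library was thus below every control library, with narrow spread inside both groups. By ratios of mean CPM, 48 of the 54 tested genes were between 1.5-fold and 4-fold lower, with a median of 2.35-fold. Spread between replicates was somewhat larger in 4KO cells, and 36 of these genes varied more there. The median coefficient of variation over the 54 tested assembly genes was 20.7%, against 16.1% in controls. This was not particular to the set. Over the whole table, chi-square divided by its degrees of freedom was 70.9 to 79.9 between 4KO replicates, against 36.0 to 46.2 between controls.

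**Figure D2:**
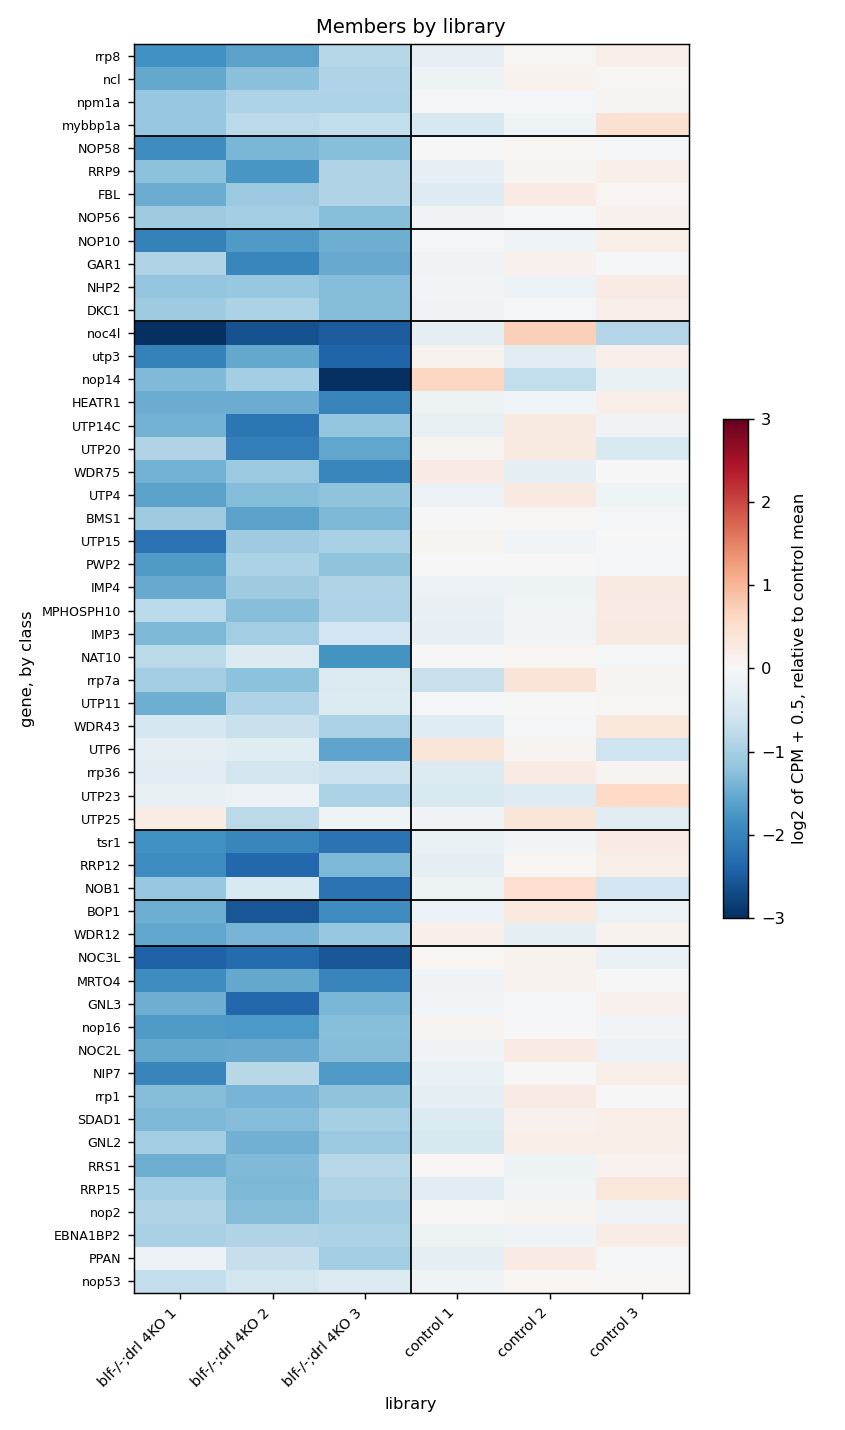
Level of each tested assembly factor in each library, as log2 of CPM + 0.5 relative to the mean of the 3 controls. Rows are genes by class, columns are libraries, and blue is lower. The 3 4KO columns are blue in nearly every row, with library medians of -1.34, -1.29 and -1.20, against -0.13, 0.04 and 0.07 in controls. Among controls, replicate 1 had the lowest value for 31 of 54 genes.

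The scaffold proteins of the nucleolus and regulators of ribosomal DNA, 4 genes, all fell (median log2 fold change -1.10). npm1a (ENSDARG00000014329) encodes nucleophosmin, which organizes the granular zone where late particles mature. It had 652, 756 and 754 CPM in 4KO replicates 1, 2 and 3, against 1386, 1384 and 1524 CPM in controls, with tight replicates and no overlap between the groups (log2 fold change -0.99, SE 0.13, adjusted p = 0.000371). ncl encodes nucleolin, an RNA-binding protein that associates with nascent ribosomal RNA. It averaged 238 ± 53.9 CPM in 4KO cells and 549 ± 51.4 CPM in controls (SD, n = 3 each), a log2 fold change of -1.20 (SE 0.19). mybbp1a, a Myb-binding protein that acts in ribosomal RNA synthesis, and rrp8, whose human counterpart methylates the large subunit RNA, were at -0.89 and -1.37 on the log2 scale.

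Box C/D snoRNPs carry the methyltransferase fibrillarin to its RNA targets and include the U3 particle that starts assembly of the small subunit. All 4 genes of this class fell (median log2 fold change -1.21). NOP58 (ENSDARG00000104353), a core scaffold, was at 238, 338 and 360 CPM in 4KO replicates 1, 2 and 3, against 862, 913 and 848 CPM in controls (log2 fold change -1.48, SE 0.18, adjusted p = 0.000167). NOP56 (ENSDARG00000012820), which pairs with it, was at 416, 433 and 360 CPM in 4KO cells, against 817, 853 and 947 CPM in controls (log2 fold change -1.11, SE 0.15, adjusted p = 0.000339). The highest 4KO library was less than the lowest control for both partners. FBL, the fibrillarin gene itself, averaged 286 ± 57.4 CPM in 4KO cells and 635 ± 137 CPM in controls (SD, n = 3 each), 2.22-fold lower. RRP9, a protein of the U3 particle, was at -1.27 on the log2 scale with an SE of 0.37.

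Box H/ACA snoRNPs turn uridine into pseudouridine, and all 4 of their core genes fell (median log2 fold change -1.30). DKC1 (ENSDARG00000016484) encodes dyskerin, the enzyme, which is mutated in the human bone marrow failure syndrome dyskeratosis congenita. It was at 268, 289 and 228 CPM in 4KO replicates 1, 2 and 3, against 517, 537 and 621 CPM in controls (log2 fold change -1.09, SE 0.16, adjusted p = 0.000822). NOP10 (ENSDARG00000104227), the smallest core protein, was at 53.9, 68.1 and 80.1 CPM in 4KO cells, against 213, 203 and 252 CPM in controls (log2 fold change -1.72, SE 0.22, adjusted p = 0.000313). Neither gene overlapped between the groups. NHP2 and GAR1, the other core proteins, were 2.31-fold and 2.63-fold lower, and 1 replicate set GAR1 apart in spread, with 93.1 CPM in 4KO replicate 1 beside 44.5 and 60.8 CPM in replicates 2 and 3.

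The small subunit processome, the large particle that holds the precursor RNA during its first cuts, was the class with the widest range. Of its 22 tested genes 14 fell, 0 rose and 8 did not pass (median log2 fold change -1.20). noc4l (ENSDARG00000045565), which acts in a pair with nop14, showed the largest fall of the set. It was at 2.87, 10.1 and 11.1 CPM in 4KO replicates 1, 2 and 3, against 52.3, 106 and 35.1 CPM in controls, with wide spread among the controls (log2 fold change -3.01, SE 0.59, adjusted p = 0.00426). nop14 itself had few reads, 467 in all, and was at 3.17, 4.02 and 0.594 CPM in 4KO cells against 13.5, 4.95 and 7.46 CPM in controls (log2 fold change -1.73, SE 0.99, adjusted p = 0.238).

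Among the other processome genes, utp3 (ENSDARG00000056720), the counterpart of yeast Sas10, had 37.7, 53.8 and 29.1 CPM in 4KO replicates 1, 2 and 3, against 169, 125 and 174 CPM in controls (log2 fold change -1.96, SE 0.29, adjusted p = 0.000733). MPHOSPH10 (ENSDARG00000012495), which had the most reads of the class, was at 210, 151 and 196 CPM in 4KO cells, against 320, 352 and 440 CPM in controls (log2 fold change -0.996, SE 0.20, adjusted p = 0.00427). Both genes were lower in every 4KO library. MPHOSPH10 forms a complex with IMP3 and IMP4, and the 3 subunits had close log2 fold changes of -0.996, -0.957 and -1.14.

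Of the UTP-A complex, which binds the start of the precursor, all 5 genes in the assembly set fell. The log2 fold changes were -1.66 for HEATR1, -1.47 for WDR75, -1.38 for UTP4, -1.33 for UTP15 and -0.71 for WDR43. Of the UTP-B genes in the set, PWP2 fell (log2 fold change -1.26, SE 0.25, adjusted p = 0.00484), UTP6 was at -0.63 (SE 0.39, adjusted p = 0.279) and utp18 was not tested. BMS1, a GTPase of the particle, fell 2.52-fold and had nearly equal values of 228, 233 and 224 CPM in the controls, with 108, 74.7 and 88.6 CPM in 4KO cells. The gene listed as UTP14C fell 2.91-fold, and UTP11 fell 1.85-fold (log2 fold change -0.89, SE 0.29, adjusted p = 0.0469).

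The genes with the smallest changes among those with a mean of at least 20 CPM were also of this class. UTP25 (ENSDARG00000017696), known in zebrafish as def for its part in growth of the digestive organs, was at 26.4, 12.7 and 20.5 CPM in 4KO replicates 1, 2 and 3, against 20.9, 28.9 and 17.6 CPM in controls (log2 fold change -0.18, SE 0.49, adjusted p = 0.82). UTP23 (ENSDARG00000105012) was at 55.2, 57.1 and 33.5 CPM in 4KO cells, against 47.0, 49.4 and 97.9 CPM in controls (log2 fold change -0.41, SE 0.37, adjusted p = 0.46). rrp36 (ENSDARG00000032516) was at 42.2, 35.8 and 33.7 CPM in 4KO cells, against 39.8, 63.0 and 55.9 CPM in controls (log2 fold change -0.51, SE 0.33, adjusted p = 0.298). The groups overlapped for all 3 genes. The sign of UTP25 depended on the setting, at 0.13 with library totals, 0.02 with no filter, 0.07 without 4KO replicate 2 and 0.06 without control replicate 2. With such SEs, a small fall cannot be told from none for these 3 genes, which were picked for their small changes.

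**Figure D3:**
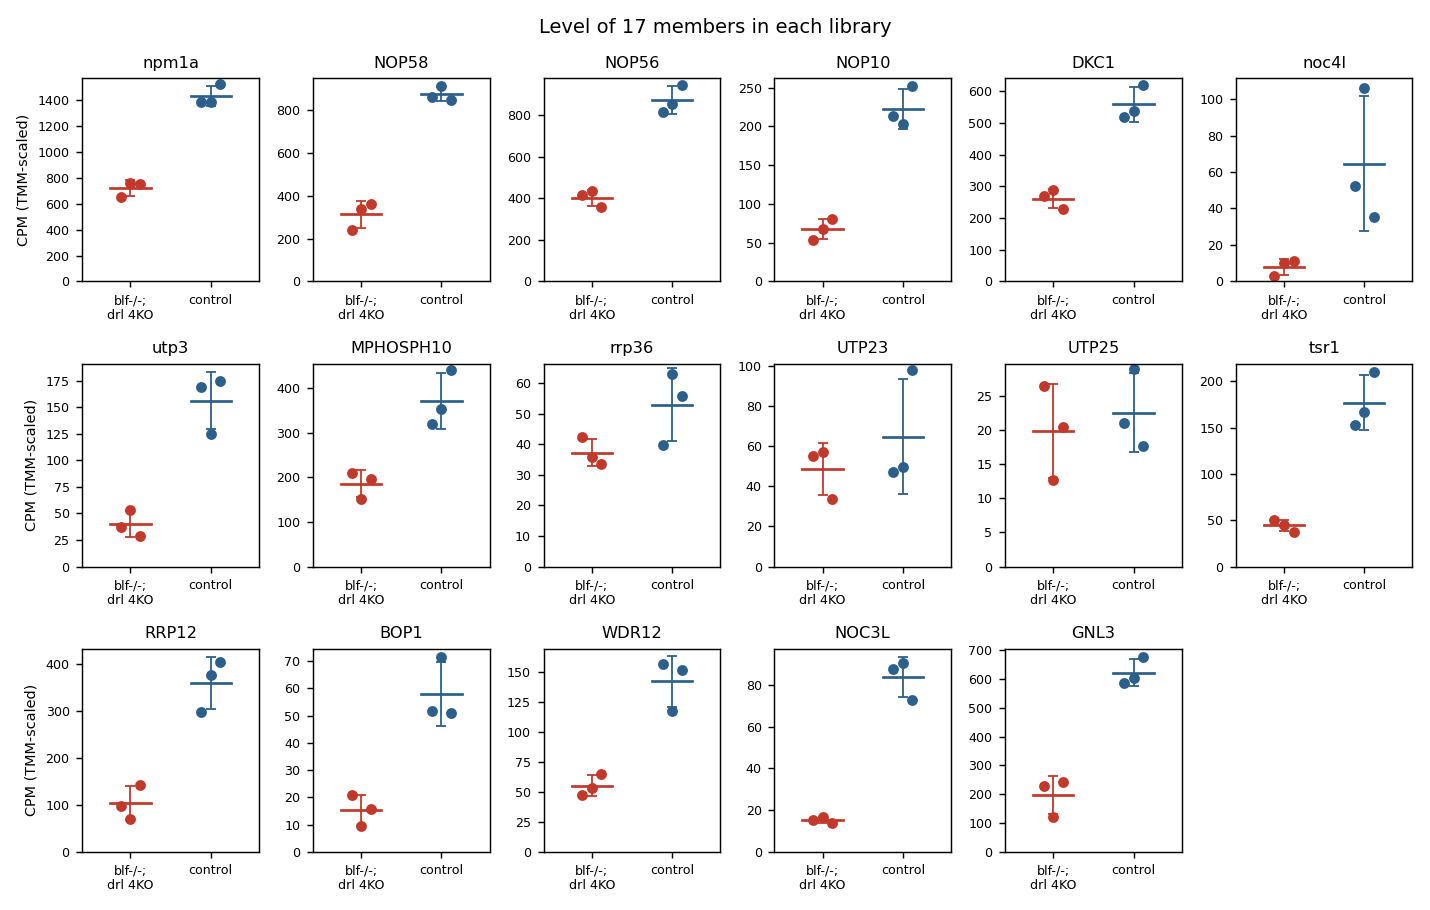
Level in CPM (TMM-scaled, linear axis from 0) of 17 assembly factors: in each class the gene of smallest p and that of most reads, the 5 largest falls and the 3 smallest changes at a mean of at least 20 CPM. Points are single libraries, lines are means and bars are SDs (n = 3 each), with 4KO cells at left and controls at right of each panel. The groups are apart in 14 panels and overlap for rrp36, UTP23 and UTP25.

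Late factors of the 40S subunit had 2 of 3 genes lower, with a median log2 fold change of -1.80. tsr1 (ENSDARG00000007744), a GTPase-like protein that holds back translation factors from the unfinished subunit, was at 49.99, 45.4 and 37.7 CPM in 4KO replicates 1, 2 and 3, against 153, 167 and 211 CPM in controls (log2 fold change -1.996, SE 0.24, adjusted p = 0.000186). RRP12 (ENSDARG00000022410), which in yeast takes part in export of the subunits, was at 98.1, 70.3 and 141 CPM in 4KO cells, against 298, 377 and 405 CPM in controls (log2 fold change -1.80, SE 0.26, adjusted p = 0.000626). For both genes the highest 4KO library stood well under the lowest control. NOB1, the nuclease that makes the final cut of the small subunit RNA, varied widely, with 27.9, 45.2 and 12.9 CPM in 4KO cells and 55.8, 89.1 and 42.0 CPM in controls (log2 fold change -1.12, SE 0.47, adjusted p = 0.112). NOB1 passed the threshold with DESeq2 (adjusted p = 0.0497).

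The PeBoW complex, made of Pes1, Bop1 and Wdr12, is needed for maturation of the large subunit RNA, and both of its listed genes fell. WDR12 (ENSDARG00000003287) was at 47.5, 53.5 and 64.5 CPM in 4KO replicates 1, 2 and 3, against 157, 117 and 152 CPM in controls (log2 fold change -1.36, SE 0.24, adjusted p = 0.00247). BOP1 (ENSDARG00000063627) was at 20.8, 9.34 and 15.6 CPM in 4KO cells, against 51.6, 71.5 and 50.9 CPM in controls (log2 fold change -1.93, SE 0.41, adjusted p = 0.00637). The symbol pes, for pescadillo, was not found, and the table has PES1 (ENSDARG00000018902), which the symbol rule does not cover. PES1 had 42.8, 53.6 and 67.8 CPM in 4KO cells and 225, 264 and 226 CPM in controls (log2 fold change -2.12, SE 0.23, adjusted p = 9.13e-05). bxdc2, an older name of brix1, which encodes a 60S factor, was at 22.5, 41.5 and 12.9 CPM in 4KO cells and 177, 173 and 123 CPM in controls (log2 fold change -2.62, SE 0.40, adjusted p = 0.000887). Both lie outside the counts of members.

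Factors of the 60S subunit fell in 14 of 15 cases (median log2 fold change -1.21). NOC3L (ENSDARG00000002487) works in a pair with NOC2L to move precursors of the large subunit. It was at 15.1, 16.6 and 13.8 CPM in 4KO replicates 1, 2 and 3, against 87.9, 90.8 and 72.9 CPM in controls. Replicates of NOC3L were close in both groups, whose means differed 5.52-fold, and the fitted log2 fold change was -2.46 (SE 0.31, adjusted p = 0.000263). NOC2L, its partner, was 2.74-fold lower, with 42.7, 43.5 and 50.6 CPM in 4KO cells and 115, 148 and 111 CPM in controls.

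GNL3 (ENSDARG00000006219) encodes nucleostemin, a GTPase that is abundant in stem and progenitor cells. It was at 227, 121 and 241 CPM in 4KO replicates 1, 2 and 3, against 587, 602 and 677 CPM in controls (log2 fold change -1.66, SE 0.24, adjusted p = 0.000652). The related GTPase gene GNL2 was at -1.19 on the log2 scale. MRTO4, which prepares the site of the ribosomal stalk, fell 3.45-fold, and nop16 fell 2.94-fold. nop2, which methylates cytosine in the large subunit RNA, fell 2.09-fold and RRS1, which helps to place the 5S particle, 2.27-fold. SDAD1, rrp1, RRP15 and EBNA1BP2 fell between 1.92-fold and 2.49-fold, and NIP7 fell 2.72-fold. The smallest called fall of the class was that of nop53, 1.48-fold (log2 fold change -0.56, SE 0.18, adjusted p = 0.0409). PPAN, a Brix domain protein, was the member of this class that did not pass (log2 fold change -0.59, SE 0.28, adjusted p = 0.151), with 107 CPM in 4KO replicate 1 inside the control range of 100 to 143 CPM.

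Enzymes that modify ribosomal RNA were spread over these classes. FBL, DKC1, nop2 and rrp8 fell, with log2 fold changes of -1.15, -1.09, -1.07 and -1.37. NAT10, which acetylates cytosine in the small subunit RNA, was at 44.4, 57.7 and 22.1 CPM in 4KO cells and 77.3, 81.1 and 75.1 CPM in controls, without overlap (log2 fold change -0.91, SE 0.36, adjusted p = 0.0903, and 0.0386 with DESeq2). UTP20, a large helical repeat protein of the processome, did not pass either, at -1.48 (SE 0.56, adjusted p = 0.084, and 0.0093 with DESeq2). rrp7a had a log2 fold change of -0.89 (SE 0.58, adjusted p = 0.301).

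Of the 44 genes that fell, 34 passed the threshold in each of the 14 other fits they entered. The other 10 lost the call when some single library was left out. nop53 lost it in all such fits but the one without control replicate 1, with adjusted p up to 0.163 (without 4KO replicate 1). mybbp1a and WDR43 lost it in the same 5 fits, with adjusted p up to 0.122 and 0.19, both without control replicate 3. UTP11 lost it in all but the fit without 4KO replicate 3, with adjusted p up to 0.154 (without 4KO replicate 1). RRP9 and IMP3 lost it without 4KO replicate 1 or 2 or control replicate 2 or 3, with adjusted p up to 0.107 and 0.074. NIP7 lost it without 4KO replicate 1 or 3 or control replicate 2 or 3 (up to 0.0658), and UTP15 without 4KO replicate 1 or any control replicate (up to 0.073). rrp8 lost it without 4KO replicate 1 (0.0519) or control replicate 2 (0.062), and GNL2 without control replicate 2 (0.0563). Each of the 10 was below 0 on the log2 scale in all of these fits.

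Further genes of the same pathway were also lower in part. In a list of 35 further factors of the 90S particle and the 40S subunit, 24 fell and 0 rose (median log2 fold change -1.06). With library totals 15 fell. The share lower with TMM was 9.92% over all tested genes and 21.5% over those with a mean of at least 20 CPM. Over all tested genes it was 6.61% with library totals and 14.5% with DESeq2. RBM19, known in zebrafish as nil per os for its part in gut development, was at 78.0, 73.1 and 75.9 CPM in 4KO replicates 1, 2 and 3, against 277, 304 and 342 CPM in controls (log2 fold change -2.02, SE 0.19, adjusted p = 2.66e-05). pdcd11, the counterpart of yeast Rrp5, fell 2.61-fold. Of 40 further 60S factors, 17 fell and 0 rose (median -1.08), with 30 lower in DESeq2 and 12 lower with library totals, among them RPF2, the partner of RRS1, 2.94-fold lower, and ccdc86, 2.48-fold lower.

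For proteins that build and carry snoRNPs, 4 of 13 tested genes fell (30.8%) and 0 rose (median log2 fold change -1.27). The share lower was 9.92% over all tested genes and 21.5% over those with a mean of at least 20 CPM. The count of this list was thus above the first share and not far from the second. The fitted fold change was below 0 for 12 of the 13, beside 6853 of all 14517 tested genes. With DESeq2 6 fell, beside 14.5% of all tested genes, and with library totals 3, beside 6.61%. The 4 that fell in edgeR were SNU13, nolc1, nufip1 and RUVBL2. SNU13 (ENSDARG00000023299, 1 of 2 genes with that symbol) binds the kink-turn of box C/D RNAs and was 2.98-fold lower. nolc1 had a log2 fold change of -1.32, and nufip1 and RUVBL2 were picked after their values were seen. RNA polymerase I and its factors had 8 of 12 genes lower and 0 higher (median -1.50). Its subunit genes polr1e and POLR1F had log2 fold changes of -2.12 and -1.49. No gene of these 4 lists rose with DESeq2 or limma-voom, or at an unadjusted p below 0.05 in edgeR (0 each).

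**Figure D4:**
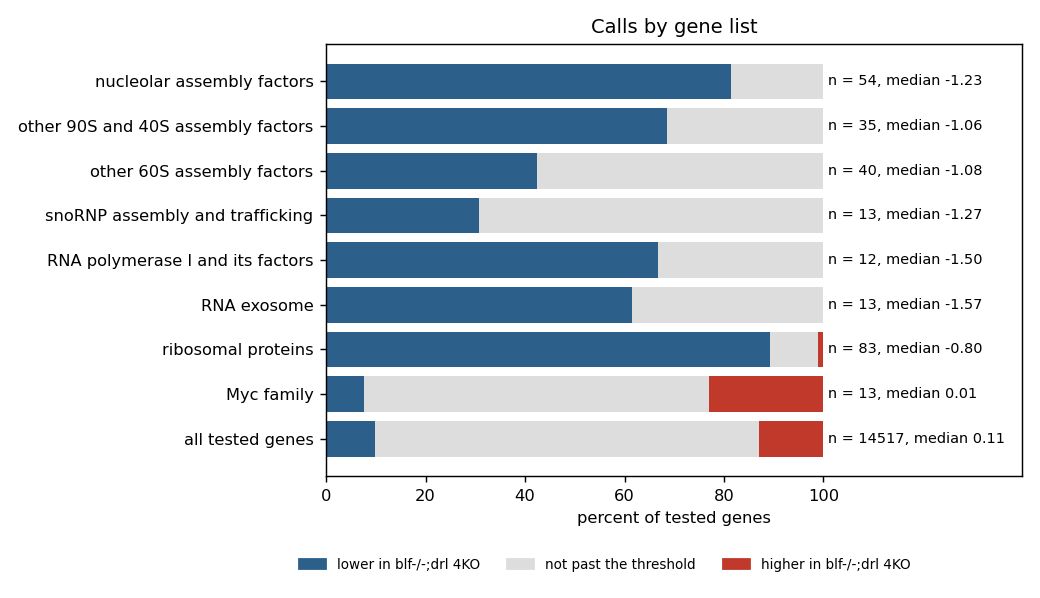
Share of tested genes called lower, not past the threshold or higher in 4KO cells over control, for the assembly factors, lists of the same pathway and all tested genes. Beside each bar stand the number of tested genes and the median log2 fold change. The assembly factors had 81.5% called lower, against 9.92% of all tested genes.

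The cytosolic ribosomal protein genes, which are the cargo of this machinery, were compared side by side with the assembly factors. They were taken by symbol pattern, which also took in rps19bp1, named as a binding protein of Rps19, and RPL7L1, named as Rpl7-like. Of 83 tested ribosomal protein genes, 74 fell and 1, rps27l, rose (it did not pass with RLE factors), with a median log2 fold change of -0.80 beside -1.23 for the assembly factors. Among all tested genes 9.92% fell, and 21.5% of those with a mean of at least 20 CPM. With library totals 54 of the ribosomal protein genes fell, beside 6.61% of all tested genes. The median was then -0.48 beside -0.91 for the assembly factors. Below -1 on the log2 scale were 39 of the 54 assembly factors and 12 of the 83 ribosomal protein genes. So were 2884 of all 14517 tested genes and 1125 of the 5431 with a mean of at least 20 CPM. The share of ribosomal protein genes below -1 was thus not above that of all tested genes. For every 100 counts of ribosomal protein genes there were 8.48, 9.65 and 8.82 counts of assembly factors in 4KO replicates 1, 2 and 3, against 12.99, 10.9 and 12.1 in controls. The ratio was thus lower in every 4KO library than in any control. No test of this difference between the sets was run.

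**Figure D5:**
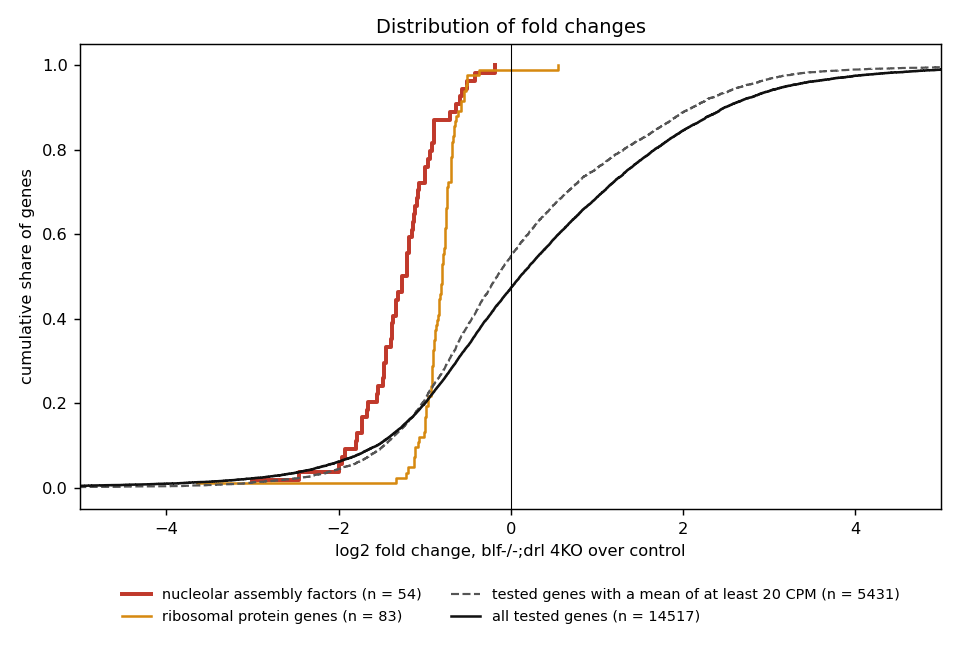
Cumulative distributions of log2 fold changes of 4KO over control for the 54 assembly factors, 83 ribosomal protein genes, 5431 tested genes with a mean of at least 20 CPM and all 14517 tested genes. The assembly factors lie to the left of the ribosomal protein genes over most of their range (medians -1.23 and -0.80). Both medians lie below that of all tested genes (0.11) and that of genes with a mean of at least 20 CPM (-0.16). The horizontal axis is drawn from -5 to 5.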

How the data were processed

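The authors deposited unnormalized read counts by Ensembl gene ID, with a separate file per library. The submitters' processing notes list GRCz11 as the build, HISAT2 2.2.1, featureCounts 1.6.0, SAMtools 1.10, FastQC 0.11.9 and bcl2fastq. Strand setting, annotation release and treatment of shared reads were not given in the sources used here, and counts of close copies and of overlapping or antisense genes are uncertain. Symbols came from a name table, which covers 29201 IDs (89.8%). Of the 55 members, 40 are listed in capitals.

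Groups and replicate numbers came from sample titles. No 2 replicates agreed within sampling noise (chi-square divided by its degrees of freedom between 36.0 and 79.9). edgeR 4.0.16 in R 4.3.3 was run over all genes with filterByExpr, TMM factors, robust dispersions and the quasi-likelihood test, two-sided, 4KO minus control, with a threshold of 0.05. The SE is the log2 fold change divided by the square root of F. DESeq2 1.42.0, limma 3.58.1 (voom), RLE factors, library totals, other filters, a replicate block and removal of each library were alternatives. Replicate numbers did not pair the libraries (correlations of same-numbered deviations between -0.041 and 0.004). The fit was tested on simulated counts. It missed most of the changes put in, so a gene that did not pass may still have changed.

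The rule for values per library took the gene of smallest p and that of most reads in each class, the 5 largest falls, and the 3 smallest changes at a mean of at least 20 CPM. Values per library of nop14, BMS1, GAR1, NOB1, NOC2L, NAT10, utp18, PES1 and bxdc2 were added after their values were seen. Other members are named by class. From each further list the rule took at most 2 genes of smallest p, and nufip1, RUVBL2, rps27l, MXI1 and both MYC genes were added after their values were seen. Members, classes and lists were chosen with earlier results of these data known.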

Additional observations from a re-analysis of the deposited data

How the results depend on the processing

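The count of assembly factors called lower was 44 with all libraries, 34 to 42 with 1 library left out in turn, 36 with library totals, 37 with no filter, 42 with the replicate block, 47 with DESeq2 and 35 at an adjusted p below 0.01, and none was called higher in these fits. The samples shared only replicate numbers, and the replicate block gave 1277 genes lower and 1651 higher. With that block NOB1 passed the threshold (adjusted p = 0.0442), and nop53, RRP9 and WDR43 did not (adjusted p = 0.0717, 0.0539 and 0.0862). With library totals the median log2 fold change of the members was -0.91, that of all genes 0.42, and 959 genes were lower. With no filter those medians were -1.06 and -0.0579, and with at least 10 CPM in 3 libraries that of all genes was -0.0017. At an adjusted p below 0.01, 769 genes were lower and 969 higher over the whole table. Leaving out each library in turn gave medians of the members from -1.34 to -1.17 and 868 to 1220 genes lower, the fewest without control replicate 2. The share of counts in members, 4KO over control, was 0.54 and became 0.46 with globin and mitochondrial genes removed, which take counts out of the total. UTP25 was above 0 with library totals (0.13), no filter (0.0194), without 4KO replicate 2 (0.0728) and without control replicate 2 (0.0572), within a range of -0.418 to 0.0728 over the fits without 1 library. The cause was not tested. Depth limited nop14 and utp18 most, with 467 and 107 reads over the 6 libraries.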

Other observations

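The RNA exosome, which trims ribosomal RNA precursors and degrades their spacers, also fell in 4KO cells. Of 13 tested genes of this list 8 were lower and 0 higher, with a median log2 fold change of -1.57 beside 0.11 over all tested genes. The share lower with TMM was 9.92% over all tested genes and 21.5% over those with a mean of at least 20 CPM. With library totals 4 were lower, beside 6.61% of all tested genes. The count of higher genes was also 0 with DESeq2, limma-voom and at an unadjusted p below 0.05 in edgeR. EXOSC8 was at 20.9, 20.5 and 32.8 CPM in 4KO replicates 1, 2 and 3, against 97.5, 94.2 and 97.9 CPM in controls (log2 fold change -1.97, SE 0.30, adjusted p = 0.00099). EXOSC10, the nuclear catalytic subunit, was 3.33-fold lower (adjusted p = 0.00274).

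Genes of the Myc network, which controls growth and many ribosome genes in vertebrates, were called in both directions. Of 13 tested genes, 1 fell and 3 rose (2 with limma-voom), beside 9.92% lower and 13.0% higher over all tested genes. A list of 13 genes is too small to say how close its shares are to those. Its median log2 fold change was 0.01 (0.31 with library totals). mych, a zebrafish Myc gene, was at 14.8, 2.72 and 11.7 CPM in 4KO replicates 1, 2 and 3, against 51.8, 38.7 and 38.7 CPM in controls (log2 fold change -2.14, SE 0.59, adjusted p = 0.0231). MXD4, a Max-binding antagonist of Myc, was at 108, 74.7 and 94.7 CPM in 4KO cells, against 31.6, 34.0 and 26.1 CPM in controls (log2 fold change 1.597, SE 0.29, adjusted p = 0.00261). MXI1 and a MYC gene also rose and were named after their values were seen, with log2 fold changes of 0.97 for MXI1 and 2.33 for MYC (ENSDARG00000045695). The second gene listed as MYC (ENSDARG00000007241) was at 85.1 ± 14.0 CPM in 4KO cells and 97.3 ± 13.1 CPM in controls (SD, n = 3 each, adjusted p = 0.61).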
